A study of Mus musculus with 42 samples.

Results

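Immediate early genes are described here over all libraries of a mouse knee arthroplasty study, as a check on tissue handling. The 10 genes were Fos, Fosb, Jun, Junb, Egr1, Ier2, Dusp1, Atf3, Zfp36 and Nr4a1. They were found by matching the Ensembl identifiers of both count tables to their symbols in GENCODE M21, the annotation of mouse build mm10. All 10 were among the 36604 genes of the joint table and the 54752 genes of the lymph node table. All 10 also passed the filter on low counts in both tissues, which kept 16149 joint and 18312 node genes.

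RNA was sequenced in wild type C57BL/6 mice of a study of knee arthroplasty, a surgical replacement of the knee joint. Joint soft tissue labelled RST was taken on days 3, 7, 14, 21 and 35, and joint soft tissue labelled LST on day 35, with 4 libraries each. The labels do not spell out RST or LST. Lymph nodes labelled Implant, ContraImplant and NoImplant were taken on days 7 and 14, with 3 libraries each. The column names of the node counts mark Implant nodes as Implant and Surgery, and ContraImplant nodes as Implant and NoSurgery. They mark NoImplant nodes as NoImplant and NoSurgery. Each Implant node shares the mouse number in its column name with a ContraImplant node. The labels used here give no animal ages and no time between death and freezing. Both tissues were frozen on dry ice, but RNA was extracted with RLT from nodes and with Trizol from joint soft tissue, so tissue and reagent cannot be told apart between the 2 tables, which were also scaled separately.

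On mm10, Fos lies at chr12:85473890-85477273, Fosb at chr7:19302696-19310051, Jun at chr4:95049034-95052222, Junb at chr8:84974484-84978718, Egr1 at chr18:34859823-34864984, Ier2 at chr8:84661331-84662852, Dusp1 at chr17:26505590-26562128, Atf3 at chr1:191170296-191218039, Zfp36 at chr7:28376784-28380253 and Nr4a1 at chr15:101254269-101274795.

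Total counts ran from 17842090 to 28024003 per joint library and from 22041900 to 44371001 per node library. The labelled tissues held their markers: the 10 B cell markers summed to 3083 to 6162 CPM over the node libraries, and the joint tissue held skeletal muscle, whose 10 markers summed to 183300 to 201700 CPM in LST day 35. Mitochondrial genes took 3.84% to 11.07% of the counts of a joint library and 1.32% to 4.08% of those of a node library.

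Immediate early genes are transcribed soon after a stimulus, without new protein synthesis, from promoters bound by serum response factor and by CREB family factors. Fos, Fosb, Jun and Junb encode subunits of AP-1, the dimeric activator of later genes, and Dusp1 and Zfp36 encode proteins that end the response. The group is induced by growth factors, cytokines, stretch and wounding, and also by cutting, warming or digesting a tissue before its RNA is fixed, which is why its level is read as a sign of handling.

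The promoters of the 4 members with the largest differences between joint groups are shown as the 250 bases before the RefSeq transcription start on GRCm38.p6, 5′ to 3′ on the gene's strand. RefSeq promoters were matched for 8 of the 10 members. Capitals mark TGACG, the half-site of the CREB family element, read on either strand, and in Dusp1 also the full palindrome TGACGTCA, which holds 1 half-site on each strand.
Fosb (chr7:19310046-19310295, minus strand): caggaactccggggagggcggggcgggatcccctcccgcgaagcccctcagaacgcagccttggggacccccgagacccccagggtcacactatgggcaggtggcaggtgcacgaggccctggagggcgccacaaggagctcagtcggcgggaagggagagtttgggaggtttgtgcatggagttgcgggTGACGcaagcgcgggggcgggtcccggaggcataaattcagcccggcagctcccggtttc
Junb (chr8:84978749-84978998, minus strand): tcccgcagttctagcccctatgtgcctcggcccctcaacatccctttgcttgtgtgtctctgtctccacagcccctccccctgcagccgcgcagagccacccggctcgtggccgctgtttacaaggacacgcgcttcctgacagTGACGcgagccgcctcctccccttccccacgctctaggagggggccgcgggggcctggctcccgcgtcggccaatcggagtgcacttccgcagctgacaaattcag
Dusp1 (chr17:26508473-26508722, minus strand): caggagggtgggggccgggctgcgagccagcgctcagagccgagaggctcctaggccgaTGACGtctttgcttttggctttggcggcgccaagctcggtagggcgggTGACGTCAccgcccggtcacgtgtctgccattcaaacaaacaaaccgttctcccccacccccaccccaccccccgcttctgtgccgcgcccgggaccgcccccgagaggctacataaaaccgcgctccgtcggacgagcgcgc
Nr4a1 (chr15:101266596-101266845, plus strand): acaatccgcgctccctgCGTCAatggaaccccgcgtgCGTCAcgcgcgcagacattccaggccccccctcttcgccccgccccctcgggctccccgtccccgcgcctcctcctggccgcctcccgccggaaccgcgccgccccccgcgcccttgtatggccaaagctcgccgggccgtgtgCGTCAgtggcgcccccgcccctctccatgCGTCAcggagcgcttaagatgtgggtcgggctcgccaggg
The half-site stood 1 time in the windows of Fosb and Junb, 3 times in that of Dusp1 and 4 times in that of Nr4a1. Of 32851 mouse promoters of the same length, 17.8% held TGACG and 1.55% held TGACGTCA. Of the other 4 matched windows, those of Fos and Atf3 held 2 and 1 half-sites, and those of Jun and Zfp36 held 0. The AP-1 element TGANTCA with C or G at N stood in 4.46% of all promoters and the CArG box, the site of serum response factor, in 1.47%, among them that of Zfp36. A match is a description of letters and says nothing about binding in these tissues.

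Levels are CPM, the usual depth-scaled counts, on the TMM scale of edgeR. Differences are log2 fold changes with standard errors from edgeR's quasi-likelihood test, in 1 fit per tissue, and the threshold was 0.05 for p adjusted after Benjamini and Hochberg across the tested genes. The RST days share the LST libraries, so their comparisons with LST are not independent of each other. In bulk tissue, fewer cells of a type and less RNA per cell cannot be told apart. The share of all genes without overlap between 2 groups was not counted in either tissue. Lack of overlap is therefore a description only, wherever it is given below.

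The members that passed against LST tissue did so in both directions. Junb passed as higher on RST days 3, 7, 14 and 21 and Fosb on days 7, 14 and 21, and neither passed on day 35. Of 8 refits that left out 1 library, 6 lost the day 21 call of Junb and 4 that of Fosb. Dusp1 and Nr4a1 passed as lower on days 3 and 7. Fos, Jun and Atf3 passed in none of the joint comparisons. Against LST day 35, 4 members passed on RST day 3 (2 higher, 2 lower), where 68.7% of all tested genes passed. On RST day 7, 5 members passed (3 higher, 2 lower) against a background of 76.1%. On RST day 14 it was 3 members, all higher, with a background of 57.9%. On RST day 21, 2 members passed, both higher, with a background of 27.1%. On RST day 35, 0 members passed in edgeR's fit, where 2.97% of all genes did, with 1 member at an unadjusted p below 0.05 and 0 in DESeq2.

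Between neighbouring RST days, 4 members passed for day 7 against day 3 (background 41.2%) and 2 for day 14 against day 7 (38.9%). For day 21 against day 14 (0.737%) and day 35 against day 21 (3.97%), 0 members passed in edgeR, 0 had an unadjusted p below 0.05 and 0 passed in DESeq2. For any change among the 5 RST days, 5 members passed (Fosb, Junb, Egr1, Dusp1 and Nr4a1), where 79.6% of all genes did. With library-size scaling alone, without TMM, the median of all genes against LST shifted by 0.52 on RST day 3, by 0.63 on day 7, by 0.29 on day 14 and by 0.12 on day 21, on the log2 scale. Calls against LST under that scaling were 4 higher and 2 lower on day 3 and 6 higher and 1 lower on day 7. They were 3 higher and 0 lower for day 7 against day 3, beside 3 and 1 on the TMM scale, and 1 higher and 1 lower for day 14 against day 7, beside 2 and 0.

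**Figure D1:**
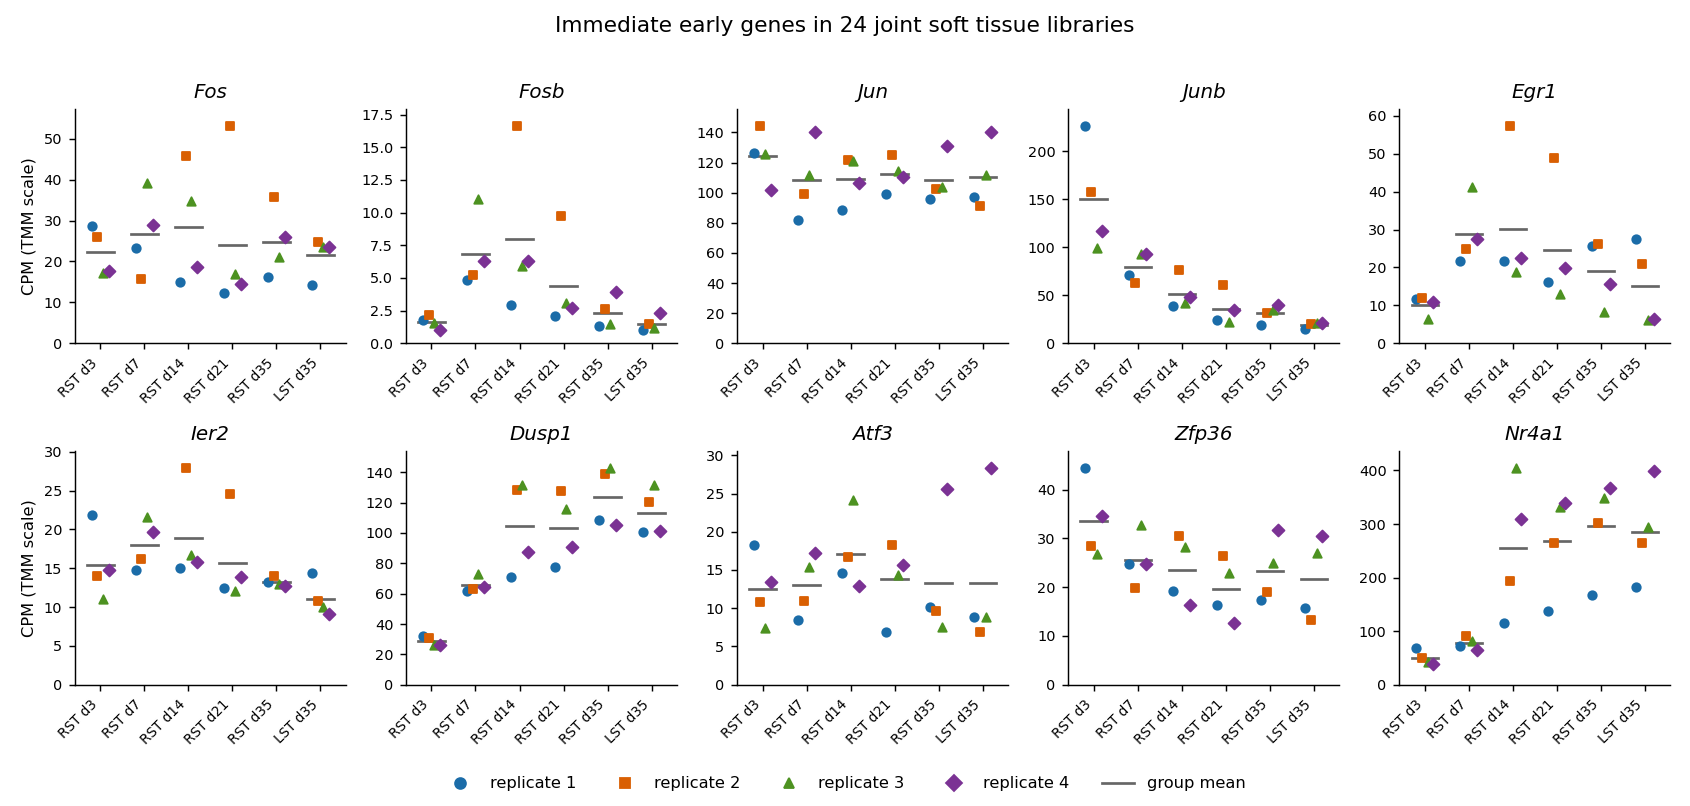
Level of each immediate early gene (y axis, CPM on the TMM scale, each panel from 0) in the 24 joint soft tissue libraries by group (x axis; d, day). Points are libraries, marked by replicate number, and lines are group means of 4. Junb falls over the RST days, Dusp1 and Nr4a1 are low on days 3 and 7, and replicate 2 stands high for Fos, Fosb, Egr1 and Ier2 on days 14 and 21.

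Junb, the AP-1 subunit that antagonises Jun in many settings, showed the largest rise. On RST day 3 it had 226, 158, 99.5 and 117 CPM in the 4 RST libraries, against 15.2, 20.2, 20.9 and 20.9 CPM in the 4 LST day 35 libraries. All 4 RST day 3 libraries were above all LST libraries, a fold of 7.76 (log2 fold change 2.96 ± 0.32, adjusted p = 3.75e-08). Later RST days had 70.7, 62.4, 93.0 and 93.0 CPM on day 7, 39.1, 76.3, 41.97 and 48.5 CPM on day 14, 24.2, 61.1, 22.2 and 34.3 CPM on day 21 and 18.8, 31.8, 34.4 and 39.3 CPM on day 35. The mean was lower on each later RST day, and the groups of days 3, 7, 14 and 21 did not overlap with LST. The log2 fold change against LST was 2.05 ± 0.31 on day 7 (adjusted p = 2.88e-06), 1.42 ± 0.30 on day 14 (0.000469), 0.88 ± 0.30 on day 21 (0.034) and 0.69 ± 0.30 on day 35 (0.326). Of the steps between neighbouring days, only day 7 against day 3 passed (-0.91 ± 0.29, adjusted p = 0.0158), and day 14 against day 7 did not (-0.63 ± 0.29, adjusted p = 0.0904). That first step did not pass without RST day 3 replicate 1 (-0.65, adjusted p = 0.0885), without RST day 7 replicate 2 (-0.81, 0.0525) or under library-size scaling (-0.80, 0.0645). The day 14 step passed without RST day 14 replicate 2 (-0.88, 0.0213).

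Fosb, which encodes an AP-1 subunit that is low in most resting cells, rose later. It had 1.76, 2.15, 1.58 and 0.981 CPM on RST day 3, 4.87, 5.21, 11.03 and 6.27 CPM on day 7 and 2.95, 16.6, 5.94 and 6.30 CPM on day 14. On day 21 it had 2.09, 9.76, 3.07 and 2.73 CPM and on day 35 1.33, 2.64, 1.43 and 3.95 CPM, against 1.04, 1.46, 1.15 and 2.30 CPM in LST day 35. The day 7 and day 14 libraries were all above those of LST, whereas day 3 overlapped with LST. The log2 fold change against LST was 2.21 ± 0.52 on day 7 (adjusted p = 0.000618), 2.44 ± 0.53 on day 14 (0.000486) and 1.60 ± 0.54 on day 21 (0.0294). It was 0.13 ± 0.57 on day 3 (0.845) and 0.65 ± 0.56 on day 35 (0.786), which did not pass. The step of day 7 against day 3 was 2.08 ± 0.51 (adjusted p = 0.00261).

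Both day 21 calls were lost without RST day 21 replicate 2, where Junb was 0.47 (adjusted p = 0.287) and Fosb 0.83 (0.318). Other libraries ended the calls with folds close to those of the full fit (Junb 0.88, Fosb 1.60). Junb was 0.78 without LST replicate 1 (adjusted p = 0.0912), 0.90 without LST replicate 2 (0.0627), 0.92 without LST replicate 3 (0.0556), 0.92 without LST replicate 4 (0.0546) and 0.90 without RST day 21 replicate 4 (0.056). Fosb was 1.47 without LST replicate 1 (adjusted p = 0.0754), 1.60 without LST replicate 2 (0.0642) and 1.496 without LST replicate 3 (0.0773).

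Fos, the partner of Jun in the classical AP-1 dimer and the gene most often read as a sign of handling, passed in no joint comparison. It had 28.6, 26.0, 17.1 and 17.7 CPM on RST day 3, 23.4, 15.7, 39.1 and 28.8 CPM on day 7 and 14.8, 45.7, 34.7 and 18.7 CPM on day 14. On RST day 21 it had 12.2, 53.0, 16.9 and 14.4 CPM and on day 35 16.2, 35.6, 21.2 and 26.1 CPM, against 14.1, 24.8, 23.6 and 23.6 CPM in LST day 35. Every RST day overlapped with LST, and replicate 2 was the highest library on days 14, 21 and 35. The log2 fold change against LST lay between 0.05 on day 3 and 0.41 on day 14, with standard errors of 0.40 to 0.41, so that the 2-SE interval on day 14 was -0.40 to 1.22 (adjusted p = 0.397). Jun, the most even of the 4 AP-1 genes, ran from 81.7 to 144 CPM over all 24 libraries. Its log2 fold change against LST was 0.18 ± 0.16 on RST day 3 (adjusted p = 0.321) and -0.03 ± 0.16 on day 7 (0.887). Under library-size scaling Jun on day 7 was 0.62 (adjusted p = 0.0046), beside the shift of 0.63 in all genes.

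**Figure D2:**
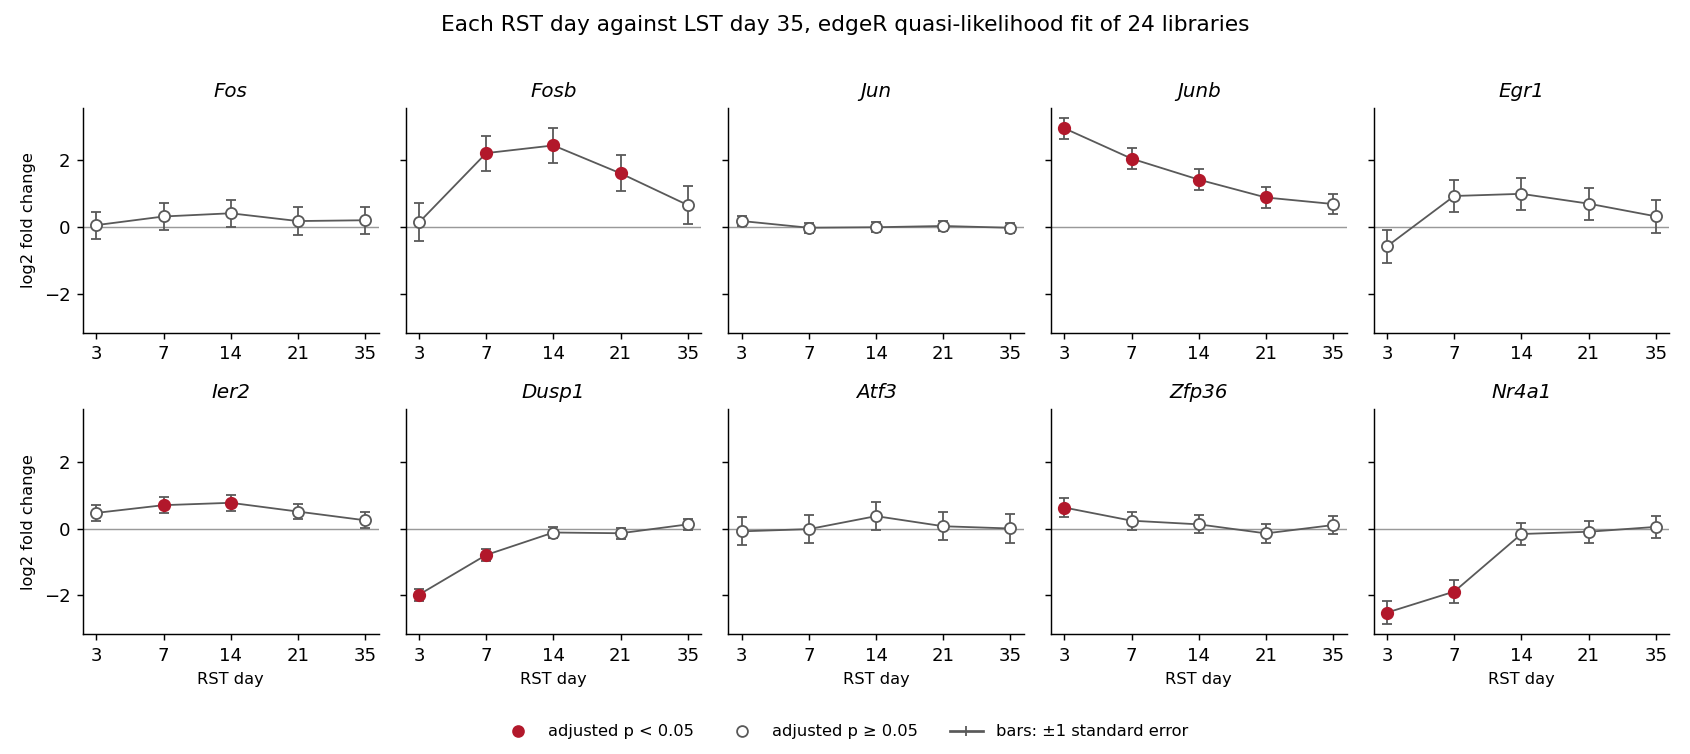
Log2 fold change of each immediate early gene (y axis) on each RST day (x axis) against LST day 35, with bars of 1 standard error, from edgeR's fit of 24 libraries. Filled points passed at an adjusted p below 0.05. Junb is highest on day 3 (2.96), Fosb on day 14 (2.44), and Dusp1 (-1.98) and Nr4a1 (-2.52) are lowest on day 3.

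Dusp1, which encodes the nuclear phosphatase that switches off p38 and JNK, had the smallest adjusted p of the members that were lower in RST. It had 32.3, 30.9, 26.1 and 25.9 CPM on RST day 3 and 61.7, 63.2, 73.2 and 64.5 CPM on day 7, against 100.5, 120.4, 132 and 101 CPM in LST day 35. No library of either day reached the lowest LST library. The log2 fold change was -1.98 ± 0.18 on day 3 (adjusted p = 3.64e-09) and -0.79 ± 0.17 on day 7 (0.000279). On days 14, 21 and 35 its means of 105 ± 29.9, 103 ± 22.7 and 124 ± 19.6 CPM (SD, n = 4 each) lay within 1 SD of the LST mean of 113 ± 15.2 CPM. Both early steps passed: day 7 against day 3 at 1.19 ± 0.18 (adjusted p = 1.82e-05) and day 14 against day 7 at 0.67 ± 0.17 (0.00434). Under library-size scaling the day 7 difference from LST was -0.16 (adjusted p = 0.467) and the day 14 step 0.34 (0.14), and neither passed.

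Nr4a1, which encodes an orphan nuclear receptor induced in muscle, macrophages and stimulated lymphocytes, was also lower on RST days 3 and 7. It had 68.0, 49.8, 42.5 and 39.6 CPM on RST day 3 and 71.6, 90.4, 82.4 and 64.7 CPM on day 7. From then on it had 115, 194, 405 and 309.5 CPM on day 14, 137, 265, 331 and 339 CPM on day 21 and 167, 302, 349 and 368 CPM on day 35, against 183, 266, 295 and 399 CPM in LST day 35. All libraries of days 3 and 7 lay below all of those of day 14 and of LST. Against LST its log2 fold change was -2.52 ± 0.34 on day 3 (adjusted p = 1.19e-06), -1.89 ± 0.34 on day 7 (2.65e-05) and -0.16 ± 0.32 on day 14 (0.689). The step of day 7 against day 3 did not pass (0.63 ± 0.33, adjusted p = 0.13), and that of day 14 against day 7 did (1.73 ± 0.33, 0.000509). The summed skeletal muscle markers were also below LST on days 3, 7 and 14. Their sum was 72390 to 96010 CPM on RST day 3, 57030 to 93720 on day 7 and 109000 to 155900 on day 14. In LST it was 183300 to 201700 CPM, and all 10 markers were lower on days 3 and 7. Between days 3 and 7 the muscle sums and the levels of Nr4a1 overlapped, and those of Dusp1 did not. The part of muscle content in the levels of Dusp1 and Nr4a1 was not tested.

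Zfp36 encodes tristetraprolin, which destabilises cytokine messages. It had 44.4, 28.4, 26.9 and 34.5 CPM on RST day 3, against 15.8, 13.3, 27.1 and 30.4 CPM in LST day 35, and the 2 groups overlapped. The log2 fold change of 0.63 ± 0.27 just passed (adjusted p = 0.044). It did not pass under RLE size factors (0.59, 0.0595) or in DESeq2 (0.59, 0.0511). It also missed without RST day 3 replicate 1 (0.47, 0.158) or replicate 4 (0.62, 0.0741), and without LST replicate 1 (0.51, 0.133) or replicate 2 (0.46, 0.157). On the other RST days its log2 fold change against LST lay between -0.14 on day 21 and 0.24 on day 7 and did not pass. Under library-size scaling day 7 passed, at 0.87 (0.0115).

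Ier2, a small nuclear protein of the first induced set, had 14.8, 16.2, 21.6 and 19.6 CPM on RST day 7 and 15.1, 27.9, 16.8 and 15.8 CPM on day 14, against 14.4, 10.8, 10.01 and 9.11 CPM in LST day 35. Both days lay above LST without overlap. It rose by 0.70 ± 0.23 on day 7 (adjusted p = 0.0092) and 0.78 ± 0.23 on day 14 (0.00731), and day 14 missed without RST day 14 replicate 2 (0.52, 0.0622). On RST day 3 it did not pass (0.47 ± 0.23, 0.0783), but it did without RST day 3 replicate 3 (0.60, 0.0323), without LST replicate 1 (0.62, 0.0342) and under library-size scaling (0.9995, 0.00284).

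Egr1, the zinc finger factor induced by growth factors and mechanical load, was lowest on RST day 3, with 11.6, 11.8, 6.45 and 10.8 CPM. It had 21.8, 25.0, 41.2 and 27.6 CPM on day 7 and 21.6, 57.2, 18.9 and 22.6 CPM on day 14. All day 7 libraries were above all day 3 libraries, and the step of day 7 against day 3 was 1.51 ± 0.49 (adjusted p = 0.0171). That step missed without RST day 3 replicate 3 (1.34, 0.0521) and without RST day 7 replicate 3 (1.28, 0.0583). Against LST day 35, which had 27.6, 20.9, 6.13 and 6.29 CPM, no RST day passed: the log2 fold change was 0.93 ± 0.48 on day 7 (adjusted p = 0.0839) and 0.99 ± 0.48 on day 14 (0.0813). Without LST replicate 1, the highest of its group, both days passed, at 1.38 (0.0201) and 1.44 (0.0225). Both also passed with the replicate block, at 1.19 (0.0115) and 1.01 (0.0364), with no filter on low counts, at 0.90 (0.0404) and 0.98 (0.0345), and under library-size scaling, at 1.57 (0.00969) and 1.33 (0.0365).

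Atf3, a stress-induced repressor of the ATF/CREB family, ran from 6.84 to 28.3 CPM within the LST group alone. Its log2 fold change against LST lay between -0.08 on RST day 3 and 0.38 on day 14, with standard errors of 0.42, and did not pass. Without LST replicate 4 the day 14 difference was 1.05 and passed (adjusted p = 0.0261).

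The order of the members by level per kilobase of exon changed with the day. In RST day 3, Junb led with 65.1 CPM per kilobase, followed by Jun (39.0) and Nr4a1 (14.2), and Fosb was last (0.259). In LST day 35, Nr4a1 led with 81.4 CPM per kilobase, followed by Jun (34.6) and Dusp1 (34.2), whose levels lay within 1 SD of each other, and Fosb was again last (0.238).

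The members differed from each other in how much they varied between replicates. Within joint groups, Egr1, Fosb, Atf3 and Fos had SDs of log2 CPM of 0.76, 0.73, 0.64 and 0.62, against a median of 0.22 over all tested genes, which placed them at the 98.4, 98.0, 95.7 and 94.9 percentiles. Jun and Dusp1 had SDs of 0.23 and 0.26, at the 52.7 and 58.0 percentiles. The other 4 lay between, from Ier2 at the 69.9 percentile to Nr4a1 at the 89.5 percentile.

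The members tended to be high in the same libraries. RST day 21 replicate 2 was the highest of its group for 9 of the 10 members, all but Nr4a1. RST day 14 replicate 2, RST day 7 replicate 3 and RST day 3 replicate 1 were each the highest for 7 members. RST day 14 replicate 1 was the lowest of its group for 7. Mitochondrial share was lowest of its group in RST day 14 replicate 2 (6.08%) and RST day 7 replicate 3 (3.84%). It was second lowest in RST day 21 replicate 2 (8.32%, lowest 8.26%) and highest in RST day 3 replicate 1 (6.50%). The part of RNA quality, handling time or tissue composition in these ranks was not tested.

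**Figure D3:**
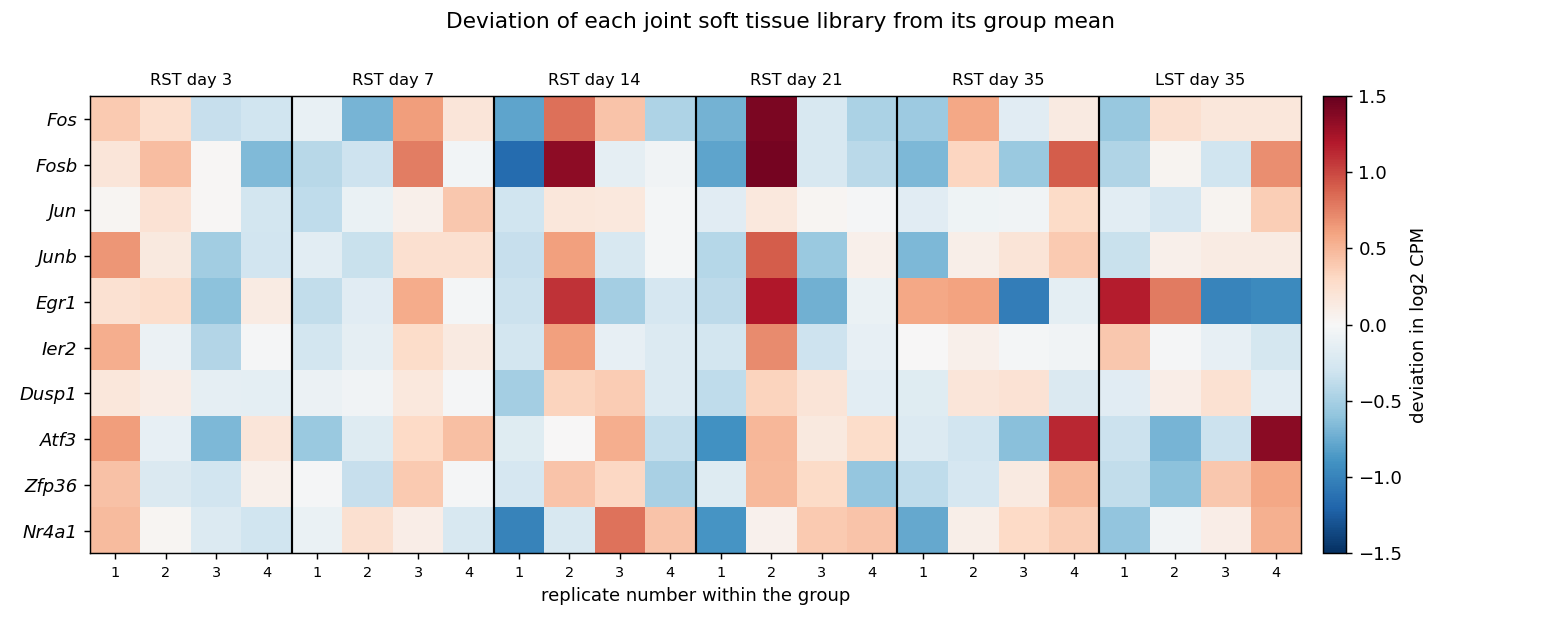
Deviation of each of the 24 joint soft tissue libraries (columns, by group and replicate number) from its group mean for each immediate early gene (rows), in log2 CPM on the colour scale. RST day 14 replicate 2 and RST day 21 replicate 2 are red for Fos, Fosb, Junb, Egr1 and Ier2, and Nr4a1 follows another pattern.

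Across the 24 joint libraries, the deviation of Fos from its group mean had a Pearson r of 0.87 with the mean deviation of the other 9 members, and that of Fosb 0.86 and of Junb 0.81. For Nr4a1 it was 0.37 and for Egr1 0.24. These values describe libraries that share depth and tissue composition and carry no p. Of 14077 other genes ranked by r with the mean deviation of the 10 members, the highest were Rbm7 (0.92), Plk3 (0.89), Cggbp1 (0.89), Gem (0.88), Ppp1r15b (0.87) and Stk17b (0.87). Their SDs of log2 CPM within groups ranged from 0.11 for Cggbp1 to 0.45 for Plk3. In the 18 node libraries, with 15017 genes ranked, they were Rhbdf2 (0.88), Bcl3 (0.85), Dhx58os (0.84), Rnf123 (0.83), Tmem132a (0.81) and Hbegf (0.81). The members followed each other less in nodes. There the r of a member with the mean of the other 9 ran from 0.05 for Fosb to 0.58 for Zfp36, with 0.10 for Fos.

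At day 35 the order of the libraries was compared between RST and LST by replicate number. The highest library carried the same number in RST and LST for 7 of the 10 members, as it did for 29.8% of all tested genes. The lowest carried the same number for 6 members, against 29.9% of all genes, and the order of all 4 numbers was the same for Fos, Fosb and Nr4a1, 3 members, against 6.14%. For RST days 21 and 14, whose numbers are not stated to mark an animal, the highest number was the same for 7 members, against 47.4% of all genes. The lowest was the same for 7 members, against 49.5%, and the full order for 4, against 12.3%. Over all genes, the correlation of deviations between these days was 0.68 for number 2 and 0.47 for number 3. It was 0.09 for number 1 and 0.13 for number 4. In the node pairs the highest number was the same for 6 members on day 7, against 41.0%, and for 4 members on day 14, against 55.3%. The lowest was the same for 7 members on day 7, against 40.5%, and for 9 members on day 14, against 53.5%. The full order was the same for 5 members on day 7, against 21.3%, and for 4 on day 14, against 36.0%. Egr1 had 25.7, 26.3, 8.37 and 15.6 CPM in RST replicates 1 to 4, against 27.6, 20.9, 6.13 and 6.29 CPM in LST replicates 1 to 4. Numbers 1 and 2 were high in both tissues and numbers 3 and 4 low in both. Atf3 had 10.2, 9.60, 7.60 and 25.6 CPM in RST, against 8.90, 6.84, 8.90 and 28.3 CPM in LST, with number 4 far above the others in both. The labels do not say that a number marks 1 animal. Over all genes, the correlation of RST and LST deviations at day 35 was 0.08 to 0.19 in the 4 numbers and did not exceed 0.1 in every number. In a fit of the 8 day 35 libraries with the number as a replicate block, 1221 genes passed and Junb was the 1 member among them, at 0.64 (adjusted p = 0.000967), with the per-library values given above. In the same 8 libraries without the block, 915 genes and 0 members passed in edgeR.

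**Figure D4:**
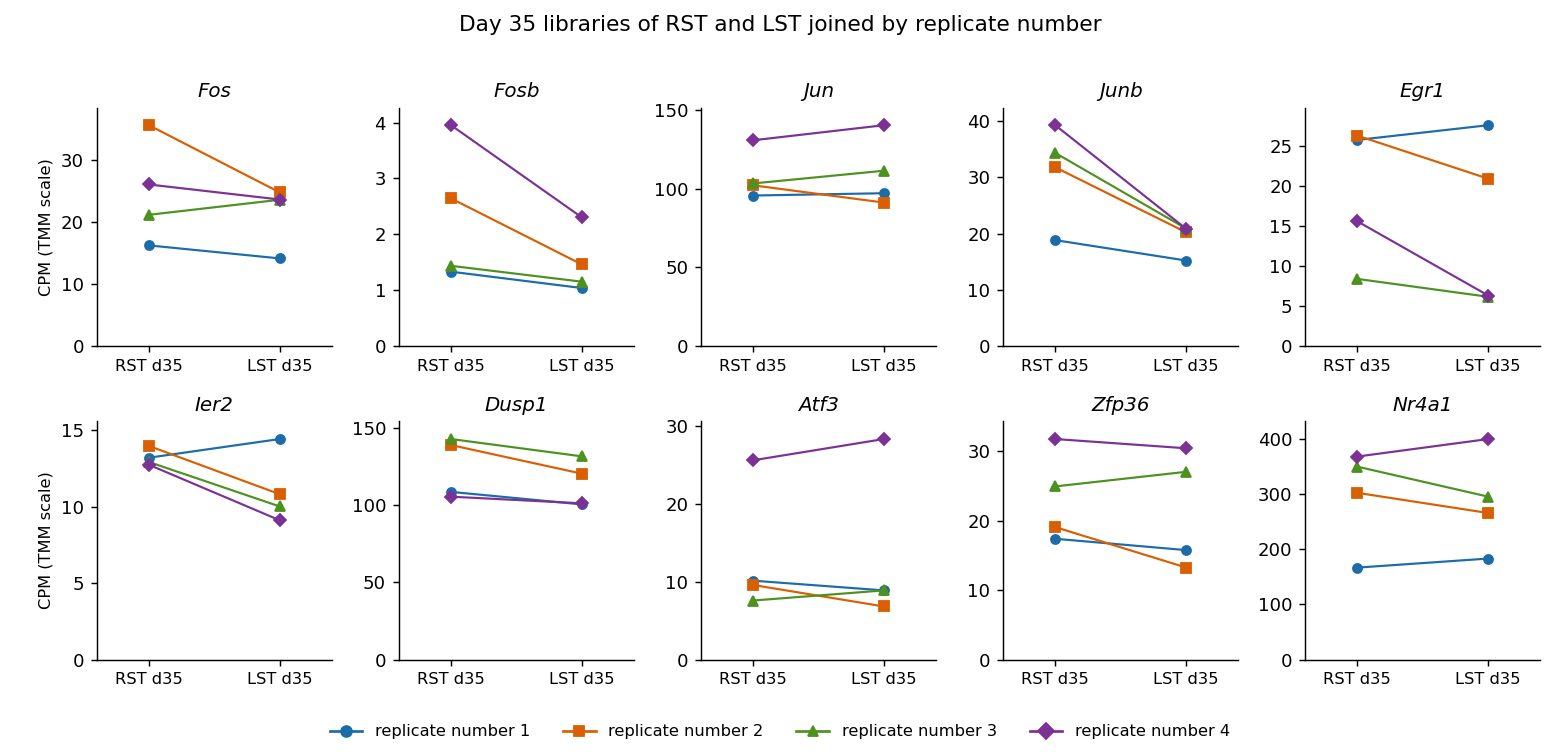
Level of each immediate early gene (y axis, CPM on the TMM scale, each panel from 0) in the day 35 joint libraries, RST left and LST right, with lines joining libraries of the same replicate number. Replicate number 4 is the highest in both tissues for Atf3, Zfp36, Nr4a1, Jun and Fosb, and Junb is higher in RST for each of the 4 numbers.

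Other genes of the same pathways were taken from lists. Of 32 other immediate early genes, 10 rose and 3 fell on RST day 3 against LST, 16 and 4 on day 7, 16 and 2 on day 14, 9 and 2 on day 21, and 1 and 0 on day 35. Of all tested genes, 38.6% were higher and 30.1% lower on day 3, 41.0% and 35.1% on day 7, 33.4% and 24.5% on day 14, 21.7% and 5.42% on day 21 and 2.92% and 0.0495% on day 35, and the counts of this and the following lists stand beside those shares. Their median log2 fold change was 0.39 on day 3 and 0.76 on day 7, beside medians of 0.09 and 0.08 over all genes. Socs3, the feedback inhibitor of cytokine receptor signalling, averaged 99.4 CPM in RST day 3 and 6.72 CPM in LST (3.89 ± 0.30, adjusted p = 4.85e-10). It was the only one that still passed on day 35 (1.06 ± 0.29, 0.0493). Fosl1, a further AP-1 subunit, rose by 2.31 ± 0.24, Ier3 by 2.24 ± 0.29 and Ier5 by 1.43 ± 0.16 on day 3, all on the log2 scale. At the step of day 7 against day 3, the 4 genes of smallest adjusted p were Egr3 (1.79 ± 0.41, adjusted p = 0.00135) and Egr2 (1.27 ± 0.33, 0.00403), relatives of Egr1, Jund (0.77 ± 0.19, 0.00302), an AP-1 subunit, and Srf (-0.42 ± 0.10, 0.00184), serum response factor itself.

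Among 13 genes of MAP kinase feedback, 7 rose and 4 fell on RST day 3, and 7 rose and 2 fell on days 7 and 14, with medians of 0.93, 0.92 and 0.75. The JNK and p38 phosphatases Dusp8 and Dusp10 were lower on day 3, like Dusp1, at -2.41 ± 0.13 (adjusted p = 2.42e-11) and -2.40 ± 0.20 (9.95e-10). Zfp36l2, a relative of Zfp36, and Spred1, an inhibitor of Ras signalling, rose by 1.66 ± 0.17 and 1.48 ± 0.16. Among 14 serum response and AP-1 cofactors, 6 rose and 4 fell on day 3, with a median of 0.11. Jdp2, a partner of Jun, had 2.38 ± 0.22 and Batf, an AP-1 factor of immune cells, 3.94 ± 0.45 on day 3.

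Genes of 3 other stress programs were counted in the same way. Of 13 heat shock genes, 4 rose and 2 fell on RST day 3, 1 rose and 8 fell on day 7 and 0 rose and 8 fell on day 14. Hsp90aa1, the inducible cytosolic chaperone, rose on day 3 by 1.35 ± 0.15 (adjusted p = 9.43e-08). Hspa1a, the inducible heat shock protein of tissue stress, averaged 2.23 CPM in RST day 14 and 5.23 CPM in LST (-1.24 ± 0.33, adjusted p = 0.0028). Of 9 tested genes of the integrated stress response, 3 rose and 3 fell on day 3. Of 11 glucocorticoid-responsive genes, 4 rose and 2 fell on day 3. Mt2 and Mt1, metallothioneins, rose by 4.66 ± 0.36 and 3.36 ± 0.32, and the transcription factors Zbtb16 and Klf9 fell, at -1.71 ± 0.26 and -1.06 ± 0.14. Median log2 fold changes on days 3, 7 and 14 were 0.19, -0.59 and -0.40 for the heat shock genes, -0.12, -0.41 and 0.02 for the integrated stress response and 0.26, -0.69 and -0.33 for the glucocorticoid-responsive genes, beside 0.09, 0.08 and 0.03 over all genes. The heat shock and integrated stress response medians of day 7 are smaller in size than the shift of 0.63 that library-size scaling gave there, so their direction depends on the scaling.

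Summed cell type markers differed between days as well. Monocyte and macrophage markers, all 10 of them higher in RST on days 3 to 21, summed to 1609 to 2682 CPM on RST day 3, 717.3 to 1346 on day 14 and 232.1 to 409.2 on day 35, against 72.49 to 104.9 CPM in LST day 35. Fibroblast markers summed to 26650 to 35020 CPM on RST day 7, against 1150 to 1288 CPM in LST. The part of these cells in the levels of Junb and Fosb was not tested.

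In lymph nodes few of the differences between groups passed. Junb had 205, 199 and 204 CPM in Implant nodes on day 7, 218, 156 and 206 CPM in ContraImplant nodes and 194, 196 and 226 CPM in NoImplant nodes. Zfp36 had 235, 262 and 228 CPM in Implant nodes on day 7, 248, 186 and 199.5 CPM in ContraImplant nodes and 228, 222 and 254 CPM in NoImplant nodes. The 3 groups overlapped for both genes, and ContraImplant replicate 2 was the lowest of its group for both. Fos was low, with 5.13, 4.71 and 5.29 CPM in Implant, 4.86, 4.01 and 5.07 in ContraImplant and 4.13, 5.57 and 5.04 CPM in NoImplant nodes on day 7. Over all 6 node groups Fos ran from 4.01 to 10.6 CPM, Fosb from 3.78 to 7.27 CPM and Atf3 from 2.42 to 7.45 CPM. Per kilobase of exon, the order in Implant nodes on day 7 was Junb (88.0), Ier2 (72.7), Zfp36 (69.7), Nr4a1 (20.8), Egr1 (16.3), Jun (12.5), Dusp1 (8.76), Fos (2.15), Atf3 (1.18) and Fosb (0.959). Within node groups, the SD of log2 CPM of every member was at most 0.34, at the 15.5 (Ier2) to 71.0 (Atf3) percentiles of all tested genes.

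Of the node comparisons, 1 gave members that passed. On day 14, Implant against NoImplant gave 2 members, both lower, where 5.97% of all genes passed. Jun had 38.8, 47.9 and 43.0 CPM in Implant nodes, against 49.4, 73.0 and 91.3 CPM in NoImplant nodes. The groups did not overlap, and the log2 fold change was -0.72 ± 0.16 (adjusted p = 0.0282). Dusp1 had 26.1, 27.8 and 29.8 CPM in Implant nodes, against 33.6, 48.1 and 46.1 CPM in NoImplant nodes, again without overlap (-0.61 ± 0.13, adjusted p = 0.0267). Both calls were lost when any 1 of 5 of the 6 libraries was left out, all but NoImplant replicate 1. Jun was then -0.66 without Implant replicate 1 (adjusted p = 0.0655), -0.85 without replicate 2 (0.0684), -0.72 without replicate 3 (0.0925), -0.71 without NoImplant replicate 2 (0.0806) and -0.51 without replicate 3 (0.11). Dusp1 was then between -0.66 and -0.52, with adjusted p of 0.0622 to 0.104.

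Atf3 and Zfp36 also did not overlap between Implant and NoImplant nodes on day 14 but did not pass. The share of all genes without overlap between these groups was not counted, so the lack of overlap is a description only. Atf3 had 3.39, 3.01 and 2.92 CPM in Implant nodes, against 4.50, 7.45 and 5.58 CPM in NoImplant nodes (-0.91 ± 0.27, adjusted p = 0.0558). It passed without NoImplant replicate 1 (-1.07, 0.0385). Zfp36 had 235, 241 and 234 CPM in Implant nodes, against 205, 199 and 196 CPM in NoImplant nodes (0.24 ± 0.09, adjusted p = 0.105). Of the 32 other immediate early genes, 1 rose and 4 fell in this comparison. Of those with the smallest adjusted p, Egr3 had 0.77 ± 0.14 (adjusted p = 0.0242), Cebpb -1.14 ± 0.28 (0.0323), Gadd45g -0.62 ± 0.15 (0.0349) and Nfkbia -0.27 ± 0.07 (0.0427). Of the marker lists, 3 did not overlap between these groups: adipocyte markers summed to 297.3 to 751.8 CPM in Implant and 1008 to 5188 CPM in NoImplant nodes, endothelial markers to 935.1 to 986.1 and 1210 to 1652 CPM, and B cell markers to 4899 to 6162 and 3083 to 4346 CPM. The glucocorticoid-responsive genes summed to 471.7 to 651.8 CPM in Implant and 679.6 to 853.3 CPM in NoImplant nodes. The part of these in the member values was not tested.

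The other node comparisons gave 0 members in edgeR. For Implant against NoImplant on day 7 (0.0437% of all genes passed), 1 member had an unadjusted p below 0.05, beside 3326 of all genes, and 0 passed in DESeq2. For Implant against ContraImplant, these counts were 5 and 0 on day 7 (0.715%, with 3764 genes at an unadjusted p below 0.05) and 1 and 0 on day 14 (0%, with 1550 such genes and 11 called by DESeq2). These fits held no term for the animal that the paired nodes share. With an animal block in edgeR, 19 genes passed on day 7 and 0 on day 14. For ContraImplant against NoImplant the member counts, at an unadjusted p below 0.05 and in DESeq2, were 2 and 0 on day 7 (0%, with 1349 and 0 genes) and 5 and 0 on day 14 (0%, with 1062 and 18 genes). Day 14 against day 7 gave 0 and 0 members in Implant nodes (0%, with 1566 and 42 genes) and 1 and 0 in ContraImplant nodes (0%, with 970 and 69 genes). In NoImplant nodes (0.0164%, with 3456 genes at an unadjusted p below 0.05) it gave 5 at an unadjusted p below 0.05 and 3 in DESeq2 (Fos, Jun and Dusp1, all higher on day 14). Whether Implant against NoImplant differed between days 14 and 7 was tested as an interaction: 0 members passed (0%, with 921 and 8 genes), with 3 members at an unadjusted p below 0.05 and 0 in DESeq2, and Dusp1 had -0.54 ± 0.19 (adjusted p = 0.927). The interaction of Implant against ContraImplant with day gave 0, 0 and 0 members (0%, with 334 and 0 genes).

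**Figure D5:**
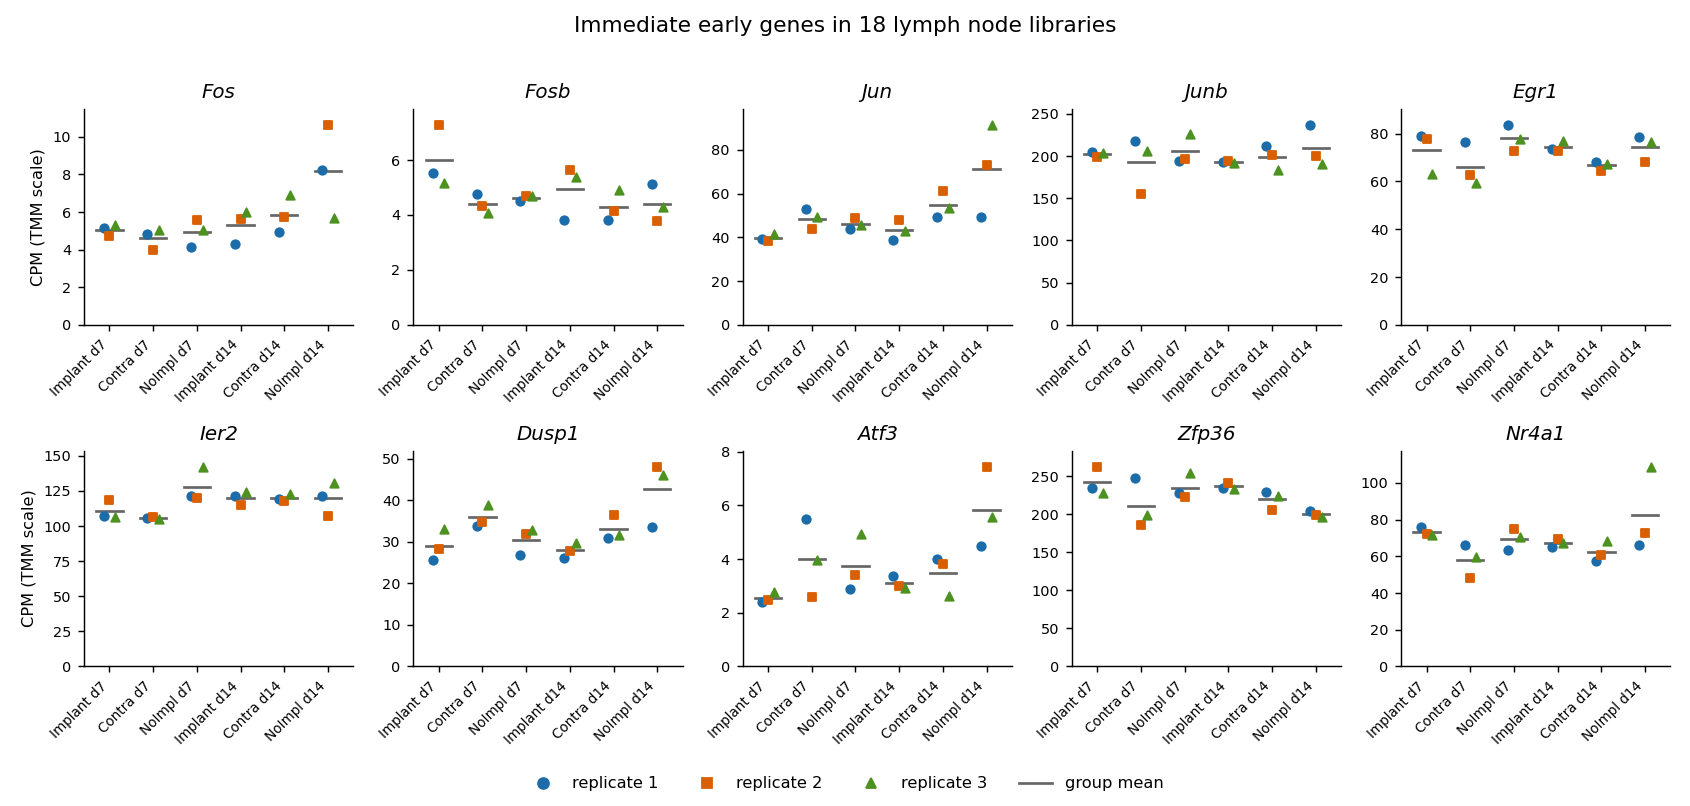
Level of each immediate early gene (y axis, CPM on the TMM scale, each panel from 0) in the 18 lymph node libraries by group (x axis; Contra, ContraImplant; NoImpl, NoImplant; d, day). Points are libraries, marked by replicate number, and lines are group means of 3. Jun and Dusp1 are lower in Implant than in NoImplant nodes on day 14.

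ContraImplant day 7 replicate 2 stood apart from the other node libraries. It had the highest mitochondrial share of the node libraries (4.08%, others up to 2.49%) and the lowest level of its group in 6 of the 10 members. Skeletal muscle markers summed to up to 150.1 CPM in Implant, 806.7 CPM in ContraImplant and 1334 CPM in NoImplant nodes on day 7, beside 15.6 to 23.1 CPM in all day 14 libraries, and their part in the day 7 values was not tested. Without that ContraImplant library, 0 members passed for Implant against ContraImplant on day 7, as with it. Without ContraImplant replicate 1 instead, Zfp36 passed (0.32, adjusted p = 0.0211).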

How the data were processed

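The 24 joint soft tissue and 18 lymph node libraries used an NEBNext Ultra II kit on 100 ng of RNA, per the labels' protocols. The submitters' processing notes name fastp, STAR and mm10. The deposited values are raw counts, 1 table per tissue. The counting program, its strand setting and its treatment of reads with several matches are not stated in any source used here, so overlapping and antisense genes cannot be told apart. Of the identifiers, 36591 of 36604 joint and 54723 of 54752 node ones matched GENCODE M21. Groups came from the sample titles. Nothing says that the joint replicates are separate animals, and the p-values for that tissue then cover only differences among these samples, which may be technical. All pairs of replicates differed by more than sampling noise (lowest chi-square per degree of freedom 8.27, genes with summed counts of at least 20). Joint replicate numbers did not meet the criterion for pairing, a correlation of deviations above 0.1 in every pair. Implant and ContraImplant nodes are paired by the mouse number in their column names, which also leads their descriptions. Counts were tested in R 4.3.3 with edgeR 4.0.16 (filterByExpr minimum count 10, TMM, quasi-likelihood F test, 1 fit per tissue). Adjusted p covers the genes of 1 comparison, and the 21 comparisons were not adjusted together. Intervals are 2 standard errors wide on each side. Deviations are from group means of log2 CPM with a prior count of 2. Alternatives were RLE size factors, no filter, DESeq2 1.42.0, a replicate block, each library left out, and, chosen after seeing the data, library-size scaling, 2 high libraries left out together and the day 35 libraries alone. The fit was checked on simulated counts with known changes. The members and all lists were chosen with earlier results of these data known. All members are named, and of each list up to 4 genes with the smallest adjusted p in a comparison. Genes most like the members are the 6 of highest r, without predicted genes. Promoters came from RefSeq, GRCm38.p6.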

Additional observations from a re-analysis of the deposited data

Results flagged for a closer look

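Single libraries stood far from the other 3 of their group in 9 of 60 combinations of a member with a joint group. The highest or lowest library was taken to stand apart when its gap to the next exceeded 0.829 of the group's range. For independent, normally distributed values this is met in about 1 in 20 groups. Members tended to be high in the same libraries and the shape of the CPM values was not tested, so 9 of 60 cannot be set against that rate. Node groups of 3 were not examined. In RST day 21, replicate 2 stood high for Fos (53.0 CPM, others 12.2, 16.9 and 14.4), for Fosb (9.76 CPM, others 2.09, 3.07 and 2.73) and for Ier2 (24.6 CPM, others 12.4, 12.1 and 13.8). In RST day 14, replicate 2 stood high for Egr1 (57.2 CPM, others 21.6, 18.9 and 22.6) and for Ier2 (27.9 CPM, others 15.1, 16.8 and 15.8). Replicate 4 stood high for Atf3 in RST day 35 (25.6 CPM, others 10.2, 9.60 and 7.60) and in LST day 35 (28.3 CPM, others 8.90, 6.84 and 8.90). In LST day 35, replicate 1 stood low for Fos (14.1 CPM, others 24.8, 23.6 and 23.6) and for Junb (15.2 CPM, others 20.2, 20.9 and 20.9). Whether handling, RNA quality or the animal set these libraries apart was not tested.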

How the results depend on the processing

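Counts of members that passed, in edgeR unless named, moved in the following cases. Under library-size scaling, any change among RST days gave 8 members, against 5. Without RST day 14 and day 21 replicate 2 together, RST day 21 against LST gave 0, against 2, and leaving out 1 library at a time gave 0 to 2. RST day 35 against LST gave 1 (Junb) in the 8 day 35 libraries with a replicate block, against 0. DESeq2 gave 4 members (Jun, Dusp1, Fos and Atf3) for Implant against NoImplant on day 14, against 2, and 3 for NoImplant day 14 against day 7, against 0. Leaving out 1 library gave 0 to 3 members in the first of these comparisons (3 without NoImplant day 14 replicate 1: Jun, Dusp1 and Atf3) and 0 to 2 in the other (2 without the same library: Jun and Dusp1), 0 to 3 for RST day 21 against day 14 (3 without RST day 21 replicate 2: Fos -0.95, Fosb -1.58, Junb -0.91) and 0 to 1 for Implant against ContraImplant on day 7. Jun on RST day 7 against LST was -0.03, and 0.62 under library-size scaling, where all genes shifted by 0.63. In the other fits, each with 1 setting changed, the count stayed within 1.5 times. The replicate block over all joint libraries gave 6 members on day 7 and 4 on day 14 against LST (Egr1 added) and changed no other call of a member, and the animal block gave 0 for Implant against ContraImplant on both days. Counts over all genes that moved by more than 1.5 times under another setting were, for RST day 35 against LST (479), 751 without a filter, 783 in DESeq2, 227 under library-size scaling, and 915 and 1221 in the day 35 libraries alone without and with the block. For RST day 21 against day 14 (119) they were 570, 1182, 465 and, with the block, 372, and for day 35 against day 21 (641) 1139, 1145 and 361, in the same order. In nodes, Implant against NoImplant gave 8 genes on day 7 (55 without a filter, 723 in DESeq2, 5 under library-size scaling) and 1094 on day 14 (2419 in DESeq2). Implant against ContraImplant on day 7 gave 131 (231, 1095, and 19 with the animal block), and day 14 against day 7 gave 3 in NoImplant (23 and 753) and 0 in ContraImplant nodes (10 and 69). Where edgeR gave 0 genes, DESeq2 gave 11 for Implant against ContraImplant on day 14, 18 for ContraImplant against NoImplant on day 14, 42 for Implant day 14 against day 7 and 8 for the interaction of day with Implant against NoImplant. Leaving out 1 library at a time moved the all-gene counts to 2502 to 4937 for RST day 21 against LST (4375), 182 to 544 for RST day 35 against LST, 2 to 4466 for day 21 against day 14 and 35 to 1884 for day 35 against day 21. In nodes it gave 0 to 4 and 0 to 1557 for Implant against NoImplant on days 7 and 14, 0 to 2030 and 0 to 1 for Implant against ContraImplant on days 7 and 14, 0 to 12 for ContraImplant and 0 to 327 for NoImplant day 14 against day 7. Fosb in joint tissue and Atf3 in nodes had the lowest mean CPM of the members; how depth limits each member was not compared. The cause of these moves was not tested.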
